A study of Homo sapiens with 39 samples.

Results

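HepaRG™ cells exposed to colchicine (COL) at 0.05, 0.1 and 0.3 µM were compared with the dimethyl sulfoxide (DMSO) control of their own exposure set, across all genes. These 4 libraries were chosen by their sample labels, out of 39 libraries in the series. The controls of 3 other exposure sets that also used DMSO, those of cisplatin (CISP), 2-nitrofluorene (2NF) and etoposide (ETP), gave the spread between untreated libraries. The matched control was shared with aflatoxin B1 (AFB1).

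HepaRG™ is an established human hepatoma line whose differentiated cultures hold hepatocyte-like and cholangiocyte-like cells. The study exposed such cultures to 10 chemicals at 3 concentrations each, with 9 vehicle controls, to set a transcript signature of DNA damage beside a micronucleus test. The cells rested for 7 days after seeding and then received COL in DMSO, or DMSO alone, on 3 consecutive days. RNA was taken 7 h after the third addition, that is after 55 h of exposure. RNA of 3 cultures was combined in equal amounts into 1 library per condition, so the spread between cultures was not recorded. Transcripts were read as 1 amplicon per gene and are given as RPM, the read count of a gene scaled by the total reads of its library to a common sum.

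Colchicine binds the dimer of alpha and beta tubulin and keeps it from joining the growing end of a microtubule. Dividing cells then cannot build a spindle, the checkpoint at the kinetochores holds them in mitosis, and chromosomes can be lost, which is why the compound is called an aneugen. Microtubules also serve cells that do not divide: hepatocytes send secretory vesicles, canalicular transporters and signalling proteins along them, and their loss frees factors that activate the actin cytoskeleton. When unpolymerised tubulin builds up, cells degrade the messenger RNA of tubulin itself.

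The 7 libraries held between 9220684 and 13966635 counts, so that 3 counts, taken as the floor of detection, stood for 0.215 to 0.325 RPM. Between 60.4% and 62.9% of the targets had at least 10 counts. The markers of the labelled cell line were present in part. Hepatocyte-like markers summed to between 17338 and 41786 RPM, and the 9 cholangiocyte-like markers to between 472 and 1348 RPM. Of these 9, 5 passed the filter on low counts, whereas KRT7, EPCAM and CFTR were listed at or under 0.099 RPM in every library. The matched control stood apart from the other 3 DMSO controls in some genes. It held 1233 RPM of KRT19, a keratin of bile duct cells, against 397 to 626 RPM there, and 35.1 RPM of FOSB, an immediate-early transcription factor, against 4.29 to 5.22 RPM. The COL libraries kept the levels of their own control in both genes, 943 to 1116 RPM for KRT19 and 23.8 to 39.8 RPM for FOSB. Other genes did not follow it: JUNB had 650.3 RPM there, 358.2 to 411.0 RPM in the other DMSO controls and 410.5 RPM at 0.05 µM COL. Each ratio below was taken to the matched control, as the exposure sets were designed.

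The number of genes that left the level of the control grew with concentration. Of 13812 genes tested, 149 (1.08%) differed over 2-fold from the matched control at 0.05 µM, 404 (2.92%) at 0.1 µM and 1143 (8.28%) at 0.3 µM, on the scale of log2(RPM + 1). The other 3 DMSO controls differed over 2-fold from the matched control in 184 (1.33%), 166 (1.2%) and 227 (1.64%) genes. The count at 0.05 µM was therefore no larger than the counts between untreated libraries, although its direction was another. There, 111 genes (0.804%) were higher and 38 (0.275%) lower. The control of CISP had 43 genes higher (0.311%) and 141 lower (1.02%), that of 2NF had 69 (0.5%) and 97 (0.702%), and that of ETP had 28 (0.203%) and 199 (1.44%). With 0.1 µM COL, 220 genes were higher (1.59%) and 184 lower (1.33%), and with 0.3 µM, 534 (3.87%) and 609 (4.41%). Against the mean of the 4 DMSO controls the split was 171 higher and 23 lower at 0.05 µM and 259 and 142 at 0.1 µM, and against the mean of the other 3 it was 212 and 29, and 312 and 174. At 0.3 µM the larger side turned, with 564 higher and 530 lower against the mean of the 4, and 622 and 531 against that of the other 3. Of the 149 genes over 2-fold at 0.05 µM, 136 were over 2-fold in the same direction at 0.3 µM, and of the 404 at 0.1 µM, 343 were. These comparisons share 1 control library, so a deviation of that library enters all of them.

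**Figure D1:**
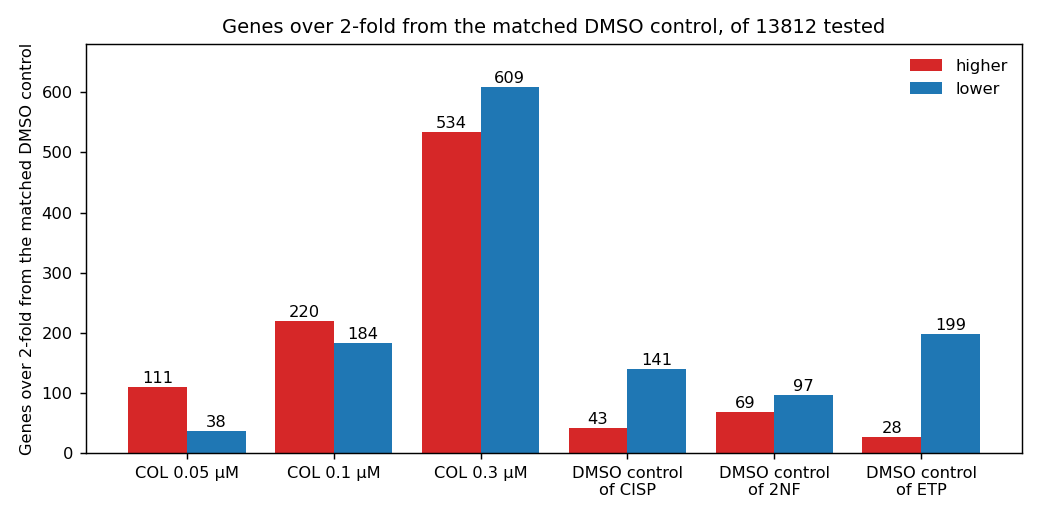
Number of genes over 2-fold above (red) and below (blue) the matched DMSO control, in each COL library and in the DMSO controls of the other 3 exposure sets, out of 13812 genes tested. Only the 0.1 and 0.3 µM libraries exceed the 166 to 227 genes seen between controls.

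A trend with concentration was tested in every gene by the slope of the counts on the rank of the COL concentration (0 for the control, then 1 to 3), with edgeR's quasi-likelihood test and Benjamini-Hochberg adjustment over all genes. The fit took its estimate of the spread from all 39 libraries, with 20 residual degrees of freedom, so its p-values measure how far pooled libraries scatter about such slopes. At an adjusted p under 0.05, 708 genes rose (5.13%) and 996 fell (7.21%). Among the genes that rose, the median log2 ratio to the matched control was 0.44, 0.67 and 1.12 at the 3 concentrations, and among those that fell it was −0.30, −0.62 and −1.05. All 3 COL libraries lay above all 4 DMSO controls in 515 of the 708, and below them in 505 of the 996. Over all genes tested the shares were 12.4% above and 9.22% below. The slope was fitted to these same COL libraries, so both counts are a description and no separate support. Without the matched control 834 genes were called, and without the 0.3 µM library 231.

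Genes of mitosis rose with COL, and most of their difference from the control was already present at 0.05 µM. Of 20 genes of this group, 18 rose with concentration and none fell, against 5.13% rising among all genes tested. All 3 COL libraries lay above all 4 DMSO controls in 18 of the 20, against 12.4% of all genes. The median log2 ratio of the group was 1.48, 1.77 and 1.85 at the 3 concentrations, while it was 0.02 to 0.32 in the other DMSO controls and 0.04, 0.02 and 0.08 over all genes tested.

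PLK1, the kinase that drives entry into mitosis and spindle assembly, had 7.45 RPM in the matched control and 7.44 to 9.98 RPM in the other DMSO controls. It had 39.8, 39.5 and 59.5 RPM at 0.05, 0.1 and 0.3 µM COL, so the groups did not overlap, and its slope was 0.81 ± 0.16 log2 units per step of concentration (SE, edgeR adjusted p = 0.00075). CCNB1, cyclin B1, the partner of the mitotic kinase CDK1, went from 10.6 RPM in the matched control to 36.9, 48.5 and 56.1 RPM. The other DMSO controls held 9.22 to 11.4 RPM of it, and its slope was 0.74 ± 0.13 (SE, edgeR adjusted p = 0.0004). CDC20, the activator that lets the anaphase-promoting complex end mitosis, had 3.87 RPM in the matched control and 20.2, 18.3 and 24.8 RPM under COL.

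The genes of the spindle checkpoint and the centromere rose too. BUB1, a checkpoint kinase, stood at 9.67 RPM in the matched control, at 8.55 to 14.5 RPM in the other DMSO controls, and at 40.0, 46.0 and 50.6 RPM under COL. BUB1B had 7.45 RPM in the matched control and 22.4, 24.2 and 22.9 RPM under COL, and MAD2L1 had 11.7 RPM and then 26.6, 31.8 and 27.9 RPM. In both genes all 3 COL libraries lay above every control, with little difference among themselves. CENPA, the histone that marks the centromere, went from 2.86 RPM to 10.4, 18.8 and 19.3 RPM, a log2 ratio of 1.56 at 0.05 µM and of 2.39 at 0.3 µM. BIRC5, the survivin subunit of the chromosomal passenger complex, had 12.1 RPM in the matched control and 40.3, 43.7 and 55.3 RPM under COL. MKI67, the gene of the proliferation antigen Ki-67, had 11.2 RPM in the matched control and 33.3, 43.9 and 43.5 RPM under COL. The members that were not called were CENPE, a kinetochore motor, with 2.94 RPM in the matched control and 5.54, 11.5 and 12.5 RPM under COL (edgeR adjusted p = 0.06), and CCNB2, with 0.86 RPM and then 1.495, 0.89 and 1.52 RPM.

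The promoters of PLK1, CCNB1 and CDC20 are shown because the mitotic genes moved together, and such genes are known to share the box CCAAT, bound by NF-Y, and the element TTTGAA or TTTAAA, known as CHR. The sequences are those of RefSeq (GRCh38.p14, a later build than the hg19 of the counts), and cover the 250 bases before the annotated start. Capitals mark both elements on either strand.
PLK1, chr16:23678639-23678888, plus strand: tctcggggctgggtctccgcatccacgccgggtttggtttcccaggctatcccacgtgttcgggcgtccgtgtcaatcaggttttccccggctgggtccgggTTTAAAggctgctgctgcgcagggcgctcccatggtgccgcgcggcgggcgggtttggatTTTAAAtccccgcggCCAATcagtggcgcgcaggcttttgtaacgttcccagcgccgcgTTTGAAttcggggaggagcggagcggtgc
CCNB1, chr5:69166900-69167149, plus strand: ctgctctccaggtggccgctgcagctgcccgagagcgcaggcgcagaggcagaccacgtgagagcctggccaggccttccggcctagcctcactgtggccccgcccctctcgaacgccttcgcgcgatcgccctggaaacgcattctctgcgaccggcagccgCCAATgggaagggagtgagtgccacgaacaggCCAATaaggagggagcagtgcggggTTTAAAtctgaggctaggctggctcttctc
CDC20, chr1:43358731-43358980, plus strand: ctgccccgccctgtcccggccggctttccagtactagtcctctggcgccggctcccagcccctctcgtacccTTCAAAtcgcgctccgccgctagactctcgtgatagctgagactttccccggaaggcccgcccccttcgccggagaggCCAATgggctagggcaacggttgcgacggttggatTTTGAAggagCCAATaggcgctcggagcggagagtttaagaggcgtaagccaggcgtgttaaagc
Of the 20 mitotic genes, 17 matched an entry, with 19 promoters. CCAAT was present in 16 of the 19 (84.2%), against 32.0% of all 35116 promoters of the same length, and TTTGAA or TTTAAA in 13 of the 19 (68.4%), against 21.9%. Among the 15 promoters of the DNA replication genes described next, 11 held CCAAT and 2 held TTTGAA or TTTAAA. These matches describe the letters of the window and do not show that a site is used.

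The shape of the mitotic response was compared with a straight trend by adding a term for the step from the control to any COL library, a test chosen after the data were seen. No gene passed an adjusted p of 0.05 for the step in edgeR, the lowest being 0.0796 for CDH16, a cadherin of epithelia. At an unadjusted p under 0.05, 191 genes rose at the step (1.38%), and 13 of the 20 mitotic genes were among them. Of the mitotic genes over 2-fold at 0.3 µM, the log2 ratio at 0.05 µM came to a median of 79.9% of that at 0.3 µM, against 35.6% over all genes so far from the control. When concentration was coded as a fraction of the highest dose, 3 of the 20 were called, and when it was coded as treated or not, 1 was. Without the matched control 3 of the 20 were called, and without the 0.3 µM library 13. In bulk RNA a larger number of cells in mitosis and more RNA per cell cannot be told apart.

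**Figure D2:**
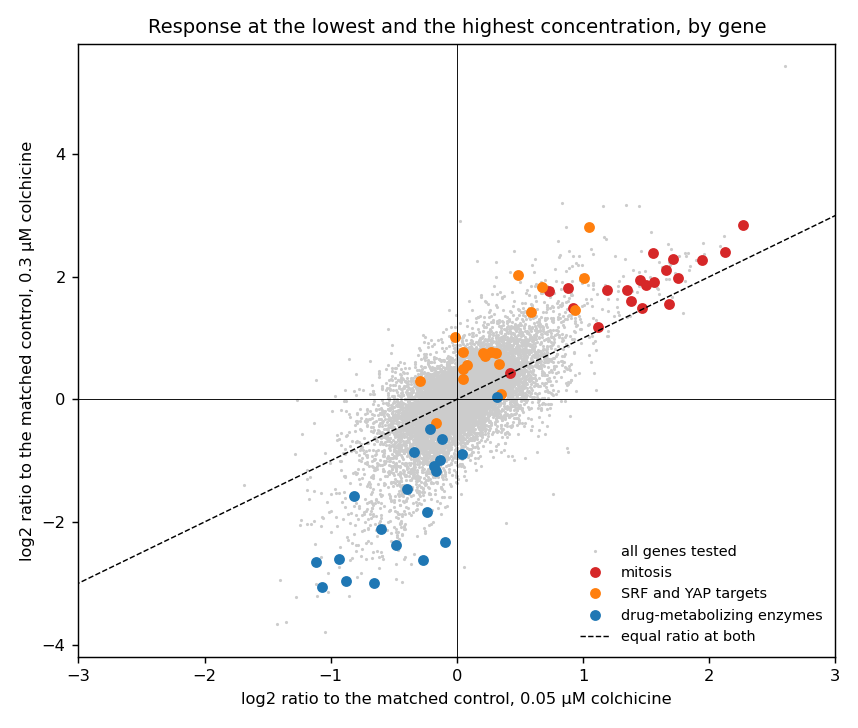
The log2 ratio to the matched DMSO control at 0.3 µM COL (vertical) against that at 0.05 µM COL (horizontal), 1 point per gene, with 3 gene groups in colour and a dashed line where both ratios are equal. Mitotic genes (red) lie far to the right, with a median of 1.48 at 0.05 µM, whereas drug-metabolizing enzymes (blue) lie mostly below the dashed line.

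DNA replication genes, which act in S phase, were higher by less. None of the 14 was called. In all COL libraries 12 of the 14 lay above all 4 DMSO controls, against 12.4% of all genes tested. Their median log2 ratio was 0.39, 0.42 and 0.52 at the 3 concentrations, and −0.25 to −0.10 in the other DMSO controls. RRM2, a subunit of ribonucleotide reductase, had 30.9 RPM in the matched control, 28.9 to 42.9 RPM in the other DMSO controls and 54.5, 58.9 and 57.4 RPM under COL (edgeR adjusted p = 0.16). TYMS, thymidylate synthase, had 92.6 RPM and then 136.6, 135.1 and 152.3 RPM (edgeR adjusted p = 0.13). MCM3, a subunit of the replicative helicase, had 69.7 RPM and then 76.7, 78.6 and 78.5 RPM.

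Targets of p53, which answer DNA damage, rose in about the share of all genes tested. Of 21 genes, 1 rose (4.76%, against 5.13% of all genes) and none fell (7.21% of all genes did). The median log2 ratio was 0.10, 0.01 and 0.18. The median at 0.3 µM was 0.37 against the mean of the other 3 DMSO controls, and 8 of the 21 lay above all 4 controls in all COL libraries, against 12.4% of all genes. The call was lost without the matched control and without the 0.3 µM library. RRM2B, the p53-dependent subunit of ribonucleotide reductase, was the gene called, with 26.9 RPM in the matched control, 22.8 to 29.1 RPM in the other DMSO controls and 30.7, 32.5 and 43.8 RPM under COL (slope 0.20 ± 0.06, SE, edgeR adjusted p = 0.02). CDKN1A, the cell cycle inhibitor p21, had 504.6 RPM in the matched control and 552.3, 463.5 and 520.4 RPM under COL, within the 504.6 to 619.0 RPM of the DMSO controls except at 0.1 µM. MDM2, the ligase that degrades p53, had 390.3 RPM and then 424.2, 535.0 and 336.0 RPM, with no order along the concentrations. GDF15, a secreted stress factor also under p53, had 139.1 RPM and then 215.4, 176.6 and 286.4 RPM (edgeR adjusted p = 0.31). For AFB1, which shares the control, the median of the same group was 0.11, 0.44 and 0.93 at 0.25, 1 and 2.5 µM; these concentrations are not matched to those of COL.

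Several genes of the actin cytoskeleton and other targets of the transcription factors SRF and YAP rose as well. Of 19 tested, 9 rose (47.4%) and none fell, against 5.13% rising and 7.21% falling among all genes tested. The median log2 ratio was 0.27, 0.29 and 0.76 at the 3 concentrations, against −0.16 to −0.10 in the other DMSO controls. Without the matched control 6 rose, and without the 0.3 µM library 3. FLNA, filamin A, which cross-links actin filaments, had 132.4 RPM in the matched control, 89.7 to 118.9 RPM in the other DMSO controls and 185.5, 262.8 and 545.3 RPM under COL. Each step was higher than the last, with a slope of 0.66 ± 0.08 (SE, edgeR adjusted p = 2.3e-06). TPM4, a tropomyosin that coats actin filaments, had 217.1 RPM in the matched control and 346.8, 505.8 and 773.8 RPM under COL. The other DMSO controls held 108.1 to 197.0 RPM of TPM4, and its slope was 0.58 ± 0.09 (SE, edgeR adjusted p = 0.00011).

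ACTB, beta-actin, often used as a reference gene, had 7822 RPM in the matched control and 9149, 10975 and 12825 RPM under COL, a slope of 0.22 ± 0.06 (SE, edgeR adjusted p = 0.017). TPM1 stayed at the control level at 0.05 µM, 276.9 against 278.9 RPM, and reached 564.4 RPM at 0.3 µM. Other targets had no such order. CTGF, a classical YAP target, had 772.6 RPM in the matched control and 985.8, 708.2 and 819.6 RPM under COL, and ANKRD1 had 194.3 RPM and then 158.6, 194.5 and 240.9 RPM within a control range of 111.6 to 283.4 RPM.

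The promoter of FLNA is shown because it had the lowest adjusted p among these genes, and because it holds a CArG box, the element bound by SRF, here in capitals (RefSeq, GRCh38.p14, the 250 bases before the start).
FLNA, chrX:154374635-154374884, minus strand: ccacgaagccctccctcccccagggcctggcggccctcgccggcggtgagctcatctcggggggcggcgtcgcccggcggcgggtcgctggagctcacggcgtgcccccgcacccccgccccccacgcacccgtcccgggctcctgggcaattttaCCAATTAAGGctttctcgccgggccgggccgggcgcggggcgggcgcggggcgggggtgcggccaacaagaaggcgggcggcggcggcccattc
For 15 of the 20 genes of the group a promoter was listed, 23 promoters in all. Of these 8 held a CArG box (34.8%), against 1.16% of all promoters; the group was partly defined by known SRF targets, so this share describes the list.

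Transcription factors of the AP-1 family and related early genes rose in part. Of 17 tested, 6 rose (35.3%) and 1 fell (5.88%), against 5.13% and 7.21% of all genes tested. The median log2 ratio was 0.56, 0.28 and 0.77. The other DMSO controls had −0.71 to −0.36, so the matched control itself was high in these genes. Without that control 2 rose and 0 fell, and without the 0.3 µM library 1 rose and 1 fell. FOSL2, an AP-1 subunit, had 41.8 RPM in the matched control, 37.1 to 52.3 RPM in the other DMSO controls and 79.5, 73.9 and 161.6 RPM under COL (slope 0.59 ± 0.11, SE, edgeR adjusted p = 0.00066). FOSL1 had 17.0 RPM and then 31.9, 34.7 and 53.1 RPM, and JUND had 66.3 RPM and then 111.2, 118.0 and 146.4 RPM. KLF6, a zinc finger factor, rose from 156.3 RPM to 396.0 RPM at 0.3 µM, and MYC from 135.0 to 285.8 RPM. JUNB was the member that fell, from 650.3 RPM in the matched control to 410.5, 295.8 and 276.2 RPM. The other DMSO controls held 358.2 to 411.0 RPM of JUNB, so at 0.05 µM it lay within the range of the controls.

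Of the tubulin genes, whose products colchicine binds, 18 alpha and beta genes had a target and 11 passed the filter on low counts. Among the 11, 1 rose and 1 fell (9.09% each), against 5.13% rising and 7.21% falling among all genes tested. TUBA1A, an alpha tubulin, had 44.6 RPM in the matched control and 60.9, 92.1 and 152.3 RPM under COL, with 41.4 to 61.1 RPM in the other DMSO controls. Its slope was 0.55 ± 0.09 (SE, edgeR adjusted p = 9.1e-05), and the libraries at 0.1 and 0.3 µM lay above every control. TUBA8, with 6.95 RPM in the matched control and 6.86, 3.77 and 3.47 RPM under COL, was the gene that fell.

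The abundant tubulin genes that were not called had values under the matched control at every concentration. TUBA1B had 451.4 RPM in the matched control and 332.7, 445.7 and 420.1 RPM under COL, TUBA1C had 713.3 RPM and then 502.4, 677.9 and 577.0 RPM, and TUBB had 788.7 RPM and then 681.8, 621.0 and 765.5 RPM. TUBB2A had 138.8 RPM and then 104.4, 113.7 and 119.0 RPM, and TUBA4A had 158.3 RPM and then 148.5, 135.9 and 146.3 RPM. TUBB4B had 45.5 RPM and then 29.9, 30.7 and 35.5 RPM, below the 39.6 to 73.3 RPM of all 4 DMSO controls. The slope test called none of these 6 genes, and none of the 11 genes had an unadjusted p under 0.05 for the step. The median log2 ratio of the 11 genes was −0.21, −0.22 and −0.14, against −0.05 to 0.24 in the other DMSO controls. None of 4 other tubulin genes was called, with a median of −0.16 at 0.3 µM. Paralogous tubulin genes are near-identical in sequence, so reads may be shared between their amplicons.

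Of 15 genes of tubulin folding, the cofactors TBCA to TBCE, the CCT chaperonin and the autoregulation factor TTC5, none was called, and the median log2 ratio was 0.08, 0.12 and 0.09. Of 22 motor and microtubule-binding genes tested, 6 rose (27.3%) and 1 fell (4.55%), against 5.13% and 7.21% of all genes tested. The median of the 22 was 0.15, 0.10 and 0.41. Without the matched control 1 rose and 0 fell, and without the 0.3 µM library 0 genes were called. TTL, the ligase that returns tyrosine to soluble alpha tubulin, had 60.8 RPM in the matched control, 66.0 to 70.0 RPM in the other DMSO controls and 79.5, 88.4 and 112.1 RPM under COL (slope 0.26 ± 0.06, SE, edgeR adjusted p = 0.0058). ARHGEF2, the RhoA exchange factor GEF-H1 that microtubules hold inactive, went from 7.66 RPM to 12.3, 10.9 and 19.0 RPM, with 7.11 to 9.11 RPM in the other DMSO controls (slope 0.37 ± 0.09, SE, edgeR adjusted p = 0.0065). MAPRE1, the plus-end protein EB1, had 84.9 RPM and then 118.5, 112.0 and 150.3 RPM, and MAP4 had 146.6 RPM and then 175.7, 188.2 and 249.9 RPM. The remaining genes that rose were KLC1 and CKAP5, and the one that fell was HDAC6, a tubulin deacetylase, from 55.1 RPM to 38.9 RPM at 0.3 µM.

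Regulators of hepatocyte identity fell with concentration. Of 10 hepatocyte transcription factors, 7 fell, against 7.21% of all genes, and the median log2 ratio was −0.26, −0.42 and −1.28. HNF4A, the nuclear receptor that sustains the hepatocyte program, had 90.8 RPM in the matched control, 80.7 to 113.2 RPM in the other DMSO controls and 72.7, 47.7 and 31.1 RPM under COL. All 3 COL libraries were below every control, and the slope was −0.58 ± 0.15 (SE, edgeR adjusted p = 0.01). CEBPA, a leucine zipper factor of liver and fat, had 12.4 RPM and then 10.6, 5.56 and 2.28 RPM. FOXA1, ONECUT1, PROX1 and NR5A2 fell too, with log2 ratios between −1.43 and −1.22 at 0.3 µM. CEBPB, FOXA2 and FOXA3 were not called. Without the 0.3 µM library 0 of the 10 were called.

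Among 10 nuclear receptors and cofactors 6 fell (60%, against 7.21% of all genes tested). The count was 3 without the matched control and 1 without the 0.3 µM library. NR1I3, the constitutive androstane receptor CAR, which switches on CYP2B6, had 6.30 RPM in the matched control and 3.43, 1.29 and 0.43 RPM under COL, with 3.18 to 6.18 RPM in the other DMSO controls. PPARGC1A, the coactivator PGC-1 alpha, had 119.2 RPM and then 88.8, 49.9 and 27.3 RPM, and its slope was −0.73 ± 0.13 (SE, edgeR adjusted p = 0.00038). NR1H3 and NR1H4, the oxysterol receptor LXR alpha and the bile acid receptor FXR, fell from 19.4 to 6.29 RPM and from 55.3 to 17.9 RPM between the matched control and 0.3 µM. AHR, the aryl hydrocarbon receptor, had higher values, 40.5 RPM in the matched control and 65.7, 80.9 and 88.8 RPM under COL, but was not called (edgeR adjusted p = 0.25).

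Most drug-metabolizing enzymes fell. Of 20 tested, 16 fell (80%, against 7.21% of all genes tested) and none rose. The median log2 ratio was −0.30, −0.64 and −1.71 (−0.08 to 0.31 in the controls of the other sets). The number over 2-fold lower was 2, 6 and 14. CYP2E1, the oxidase of ethanol and paracetamol, had 76.3 RPM in the matched control, 79.4 to 147.1 RPM in the other DMSO controls and 35.8, 25.7 and 8.24 RPM under COL. Its slope was −1.12 ± 0.22 (SE, edgeR adjusted p = 0.00078), and no COL library overlapped with a control. SULT2A1, the sulfotransferase of steroids and bile acids, had 227.8 RPM and then 144.2, 111.4 and 27.7 RPM (slope −1.01 ± 0.18, SE, edgeR adjusted p = 0.00025).

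CYP2B6 had 59.9 RPM in the matched control and 49.5, 28.5 and 8.89 RPM under COL. CYP3A4, the most used enzyme of drug clearance, changed less against the matched control, from 113.2 RPM to 100.8, 87.7 and 49.6 RPM. The other DMSO controls held more, 138.2 to 279.0 RPM, so all COL libraries lay below every control. CYP1A2 had 19.2 RPM in the matched control, 23.8 to 38.6 RPM in the other DMSO controls and 17.9, 14.4 and 3.04 RPM under COL, so that most of its fall came at 0.3 µM. CYP1A1, the target of AHR, was not called and had no order, with 131.8 RPM and then 135.4, 219.6 and 70.4 RPM. The count of 16 was 13 without the matched control, and 0 without the 0.3 µM library.

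The promoter of CYP2C8, an enzyme that fell from 63.5 RPM in the matched control to 45.3, 35.3 and 11.4 RPM, is shown because HNF4A fell in the same libraries and the window holds letters of its known binding site, CAAAGTCCA or CAAAGGTCA, on either strand, here in capitals (RefSeq, GRCh38.p14, the 250 bases before the start).
CYP2C8, chr10:95069498-95069747, minus strand: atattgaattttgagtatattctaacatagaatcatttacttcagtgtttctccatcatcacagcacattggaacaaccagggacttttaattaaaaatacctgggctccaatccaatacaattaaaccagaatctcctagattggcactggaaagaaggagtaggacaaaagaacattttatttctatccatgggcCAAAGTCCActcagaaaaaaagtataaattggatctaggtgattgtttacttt
One or the other word was present in 3 of 16 promoters of this group (18.8%), those of CYP2A6, CYP2B6 and CYP2C8. The plasma proteins had it in 1 of 15, the hepatocyte transcription factors in 0 of 10, and all promoters in 0.664%. The share of this group rests on few promoters, and a match does not show that HNF4A binds there. A part of HNF4A in the fall of these enzymes was not tested.

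Many proteins that hepatocytes secrete into the plasma fell. Of 16 genes, 12 fell (75%, against 7.21% of all genes tested) and none rose. The median log2 ratio was −0.33, −0.52 and −1.28, against −0.24 to −0.14 in the other DMSO controls. Without the 0.3 µM library 1 fell. TTR, transthyretin, had 4802 RPM in the matched control, 5059 to 5488 RPM in the other DMSO controls and 2992, 2904 and 1645 RPM under COL (slope −0.55 ± 0.12, SE, edgeR adjusted p = 0.0024). APOC3, an apolipoprotein of triglyceride-rich particles, had 679.4 RPM and then 462.1, 358.0 and 154.8 RPM, and APOA1, the main protein of HDL, had 3320 RPM and then 2417, 1842 and 1114 RPM. ALB, albumin, was not called. It had 26125 RPM in the matched control, 25659 and 25882 RPM at the lower concentrations and 14275 RPM at 0.3 µM, below the 17792 to 33206 RPM of the controls at that concentration alone. Acute-phase proteins fell in 4 of 14 genes (28.6%), CRP, SAA4, ORM1 and ORM2. The median of the 14 was −0.89 at 0.3 µM, and −0.50 against the mean of the other 3 DMSO controls. Without the 0.3 µM library 0 of them were called. The matched control held 57.2 RPM of CRP against 13.4 to 25.9 RPM in the other DMSO controls, and only the 12.9 RPM at 0.3 µM lay below them all.

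Other metabolic genes of the liver fell as well. Of 12 genes of bile acid synthesis and transport, 8 fell (66.7%, against 7.21% of all genes tested) and none rose. The medians were −0.54, −0.62 and −1.247. Without the 0.3 µM library 1 fell. CYP7A1, the rate-limiting enzyme of bile acid synthesis, had 23.2 RPM in the matched control and 10.9, 4.57 and 1.74 RPM under COL. The other DMSO controls held 3.93 to 10.8 RPM of it, so that the library at 0.3 µM alone lay below all controls, although the slope was −1.29 ± 0.21 (SE, edgeR adjusted p = 0.00014). It was not called when the COL libraries were fitted against the 4 DMSO controls without the block for exposure sets. Of 11 genes of the urea cycle and amino acid catabolism, 9 fell (81.8%), with medians of −0.48, −0.76 and −1.52. The count was 5 without the matched control and 0 without the 0.3 µM library. TDO2, which opens tryptophan, had 182.3 RPM in the matched control, 99.0 to 210.4 RPM in the other DMSO controls and 141.4, 76.8 and 27.4 RPM under COL. CPS1, the entry enzyme of the urea cycle, went from 100.7 RPM to 72.0, 53.03 and 20.9 RPM, with 47.4 to 50.5 RPM in the other DMSO controls, and only the library at 0.3 µM lay below all controls.

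Among genes of fatty acid oxidation and ketogenesis, 4 of 10 fell (40%) and 1 rose (10%), against 7.21% and 5.13% of all genes. ANGPTL4, an inhibitor of lipoprotein lipase, was the gene that rose, from 5.30 RPM to 8.62, 11.4 and 25.7 RPM (slope 0.75 ± 0.12, SE, edgeR adjusted p = 8.2e-05). CPT1A, the gate of fatty acid entry into mitochondria, had 70.7 RPM and then 82.1, 62.6 and 84.8 RPM. Of 12 genes of sterol synthesis 3 fell (25%), FDFT1, IDI1 and DHCR7, by 0.71 to 0.76 on the log2 scale at 0.3 µM.

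**Figure D3:**
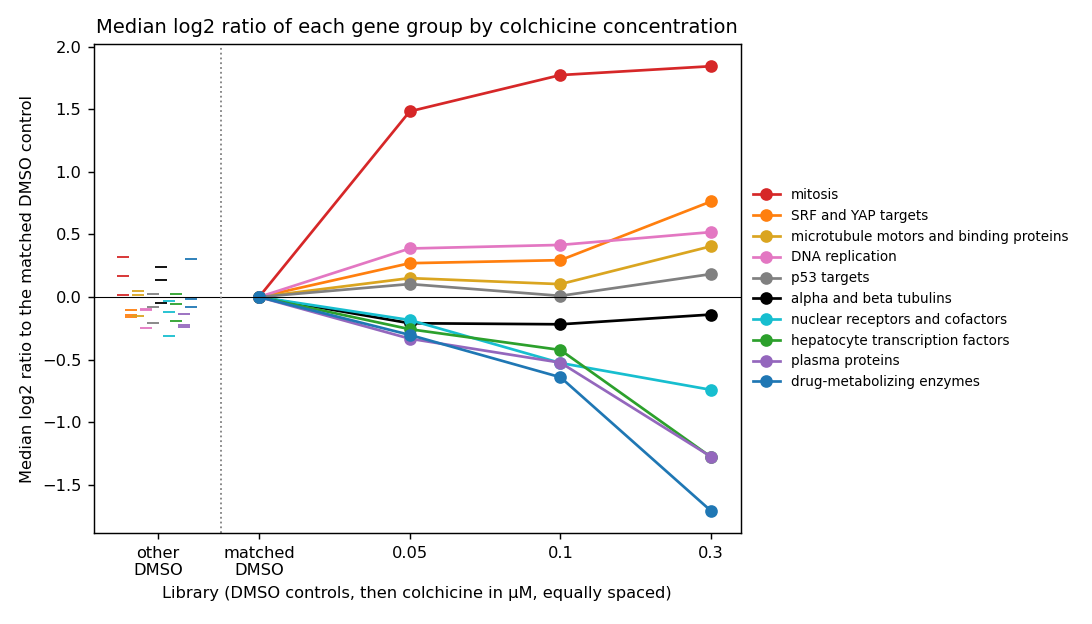
Median log2 ratio to the matched DMSO control of 10 gene groups in the COL libraries, joined by lines and spaced equally, with the same medians of the other 3 DMSO controls as dashes on the left. The mitosis group reaches 1.48 at 0.05 µM and 1.85 at 0.3 µM, while the drug-metabolizing enzymes go from −0.30 to −1.71.

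**Figure D4:**
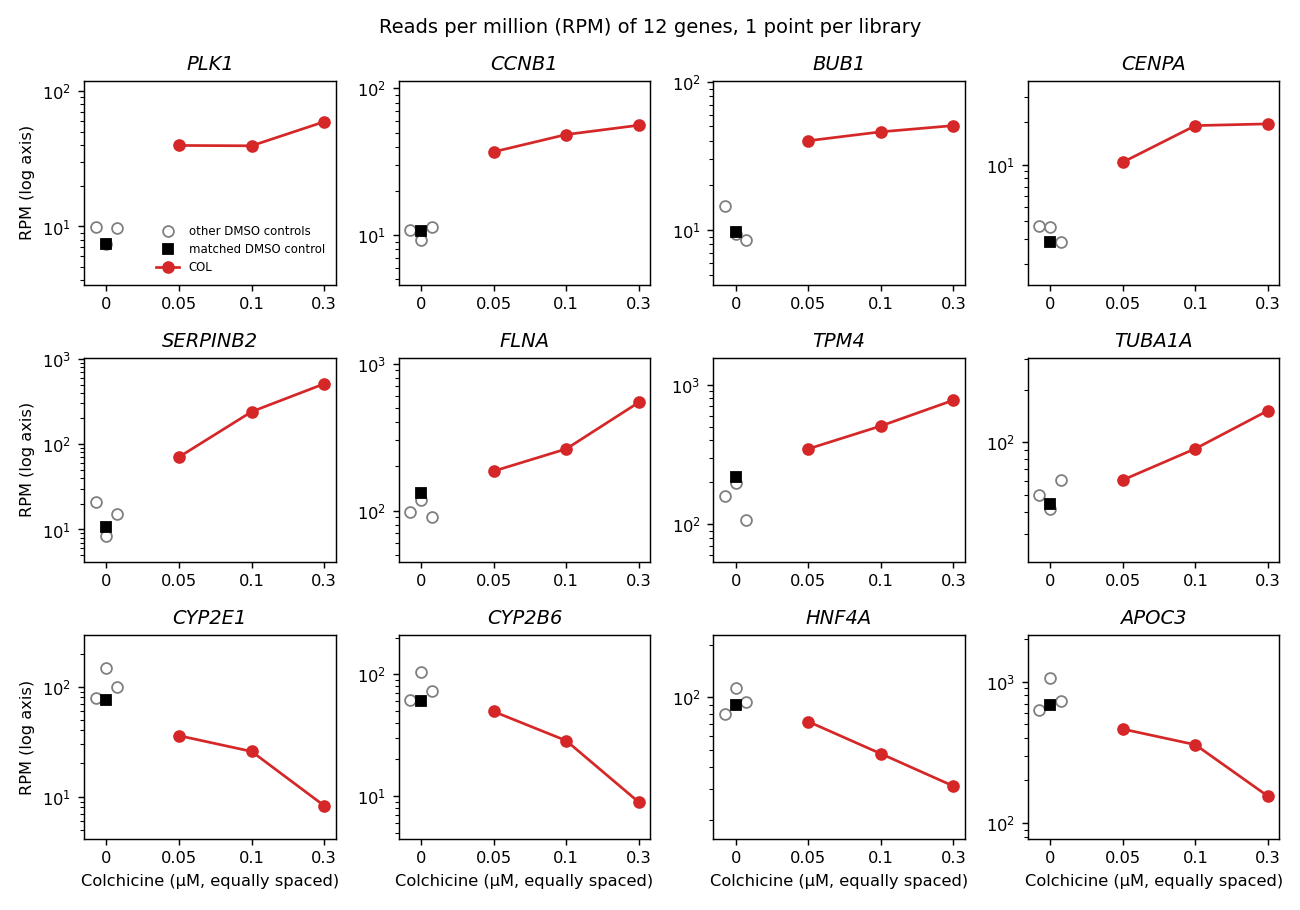
RPM of 12 genes on a log axis, 1 point per library, against COL concentration; the black square is the matched DMSO control and open circles are the other 3. On this axis the step from the matched control to 0.05 µM is the largest in PLK1, CCNB1, BUB1, CENPA and SERPINB2. In FLNA, TUBA1A, CYP2E1 and HNF4A a later step is the largest.

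Of the genes over the whole panel with the highest ratio at 0.3 µM, SERPINB2, the plasminogen activator inhibitor PAI-2, led. It had 10.8 RPM in the matched control, 8.38 to 20.7 RPM in the other DMSO controls and 70.7, 240.1 and 509.7 RPM under COL (slope 1.73 ± 0.18, SE, edgeR adjusted p = 3.9e-07). ITGB3, the integrin beta 3 subunit, had 3.72 RPM and then 11.0, 14.7 and 41.6 RPM, and LGALS1, galectin-1, had 19.9 RPM and then 46.0, 60.5 and 129.8 RPM. Neither overlapped with a control at any concentration. S100A2, a calcium-binding protein of epithelia, had 235.1 RPM in the matched control against 61.5 to 89.6 RPM in the other DMSO controls, and 419.2, 916.0 and 2181 RPM under COL. PTGES, the synthase of prostaglandin E2, had no count in the matched control and 1.23, 1.89 and 7.92 RPM under COL, and STMN4, of the stathmin family that sequesters tubulin, had 0.07 RPM and then 0.09, 0.89 and 7.05 RPM. PTGES and STMN4 received no adjusted p from DESeq2. NEK2, a centrosome kinase, and DEPDC1 joined PLK1 among the leading 15, and they, with PLK1, lost their call without the matched control.

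Of the genes with the lowest ratio at 0.3 µM, ADH1B led. ADH1B, an alcohol dehydrogenase, had 800.6 RPM in the matched control, 454.2 to 612.7 RPM in the other DMSO controls and 388.0, 274.1 and 56.8 RPM under COL (slope −1.23 ± 0.17, SE, edgeR adjusted p = 1.5e-05). GLYAT, which joins glycine to acids, had 119.2 RPM and then 84.9, 54.8 and 14.7 RPM. G6PC, glucose-6-phosphatase, which releases glucose, had 18.2 RPM in the matched control, 5.69 to 17.1 RPM in the other DMSO controls and 6.51, 4.27 and 0.54 RPM under COL. ACSM3, IGFBP5, SLC22A7, GPD1 and ADH4 were also among the lowest 15, with log2 ratios between −3.66 and −2.89.

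Genes of general stress and of cell death are given beside the shares of all genes tested, 5.13% rising and 7.21% falling. Of 11 cell death regulators, 3 rose (27.3%) and 1 fell (9.09%). PMAIP1, the BH3-only protein NOXA, had 8.31 RPM in the matched control, 9.43 to 14.2 RPM in the other DMSO controls and 15.4, 22.0 and 46.4 RPM under COL (slope 0.78 ± 0.11, SE, edgeR adjusted p = 2.4e-05). TNFRSF12A, the receptor of TWEAK, had 177.5 RPM and then 249.9, 329.6 and 492.2 RPM. BCL2L1, which protects mitochondria, rose from 202.3 to 329.0 RPM at 0.3 µM, and BCL2L11, the pro-apoptotic BIM, fell from 22.8 to 14.6 RPM. Of 12 genes of the integrated stress and unfolded protein response none was called. Of 9 NRF2 targets 2 fell (22.2%), among them NQO1, the quinone reductase. The matched control was low in this group, with medians of 0.28 to 0.50 in the other DMSO controls. The median at 0.3 µM was −0.11, and −0.62 against the mean of the other 3 DMSO controls. Of 13 heat shock and metallothionein genes 1 rose (7.69%), MT2A. Of 9 genes of lysosome and autophagy none was called. Of 15 NF-kappaB targets and chemokines 2 rose and 2 fell (13.3% each). IL6, the interleukin that drives the acute phase, was among those that rose, from 0.64 RPM to 2.20, 3.87 and 6.51 RPM, and NFKBIA among those that fell, from 264.3 to 151.0 RPM at 0.3 µM. Of 8 intermediate filament genes 2 rose (25%), LMNA and NES, and KRT8 and KRT18, the keratins of hepatocytes, were not called.

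Markers of cell types were listed beside these groups. Hepatocyte-like markers, all of them members of groups above, fell in 5 of 8 genes (62.5%, against 7.21% of all genes tested). Their sum, most of it ALB, was 34848 RPM in the matched control and 27050 to 41786 RPM in the other DMSO controls. Under COL it was 31626 and 31074 RPM at the lower concentrations and 17338 RPM at 0.3 µM. Of 9 cholangiocyte-like markers 5 were tested and 1 fell, SPP1; their sum was 1348 RPM in the matched control, 472 to 710 RPM in the other DMSO controls and 1027 to 1212 RPM under COL. Fibroblast or stellate markers summed to 121.7 to 163.7 RPM in the DMSO controls and to 190.4 to 215.7 RPM under COL, with COL1A2 at 0 in every library and COL1A1 rising. Endothelial markers summed to 50.5 to 87.8 RPM in the DMSO controls and to 25.1 to 45.6 RPM under COL, with VWF and CDH5 at 0 and KDR falling. Macrophage or leukocyte markers summed to 105.1 to 130.4 RPM in the DMSO controls and to 85.9 to 106.3 RPM under COL, with PTPRC at 0 and CD14 falling. The part of a shift in cell types in the fall of the hepatocyte genes was not tested. Of 9 housekeeping genes 1 rose, YWHAZ, and 1 fell, SDHA, with a median log2 ratio of 0.04 at 0.3 µM.

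The COL libraries were placed among all 30 treated libraries by the median log2 ratio of each group to its own vehicle control, as a description and with no test. At 0.3 µM COL ranked highest of the 30 for the SRF and YAP targets, with 0.76 against at most 0.44 elsewhere, and for the microtubule motors and binding proteins, with 0.41 against at most 0.35. It ranked lowest for the hepatocyte transcription factors, with −1.28 against −1.23 for MMS (methyl methanesulfonate) at 100 µM. The ranks for motors and for hepatocyte factors rested on small margins. Against the mean of the 4 DMSO controls the COL medians of these groups were 0.345, below the 0.352 of MMS at 200 µM, and −1.16. Against the mean of the other 3 DMSO controls they were 0.434 and −1.12. The 3 COL libraries were the 3 lowest of the 30 for alpha and beta tubulins, where the other libraries lay between −0.12 and 0.82. The margin was small there too, with −0.14 at 0.3 µM COL against −0.12 for ampicillin at 1 mM. Against the mean of the other 3 DMSO controls the COL value was −0.22. For mitosis COL held ranks 2, 3 and 6, below 2NF at 250 µM with 2.54, and for drug-metabolizing enzymes AFB1 at 2.5 µM lay lower, at −2.21. For p53 targets COL held ranks 13, 17 and 22.

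**Figure D5:**
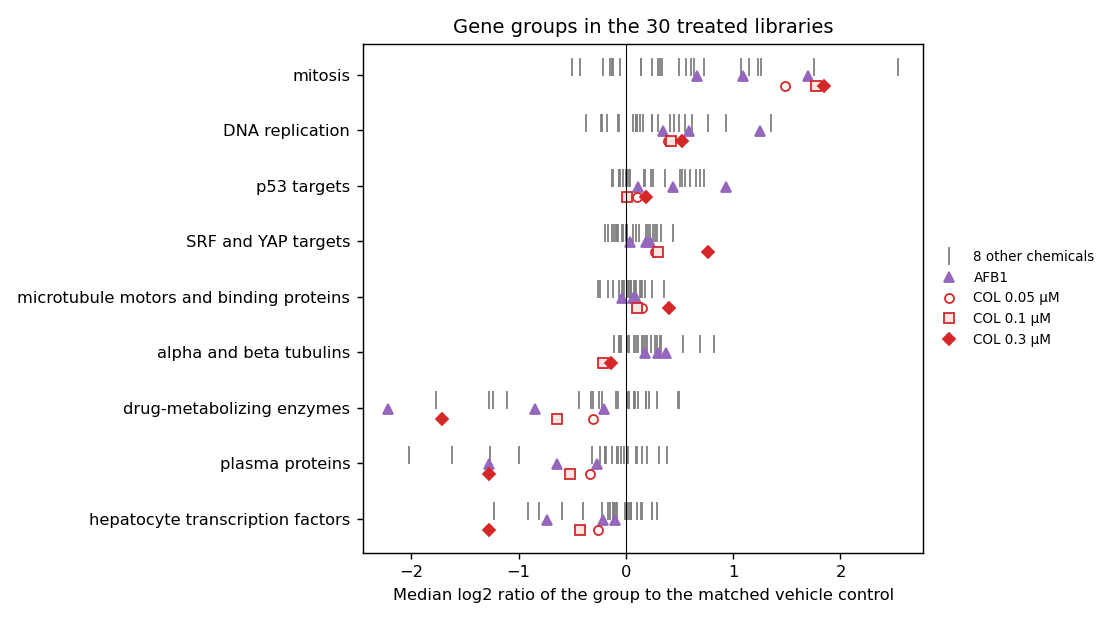
Median log2 ratio of 9 gene groups to the matched vehicle control in the 30 treated libraries: grey ticks are 8 other chemicals, triangles AFB1 (which shares its control with COL) and red symbols COL. COL at 0.3 µM has the highest value for SRF and YAP targets (0.76). All COL libraries have the lowest values for alpha and beta tubulins, at 0.3 µM by a small margin.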

How the data were processed

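Libraries were made from 3 combined cultures per condition with an AmpliSeq whole-transcriptome panel. The authors aligned the reads to the panel's transcripts (hg19), pooled the reads of 5 chips by barcode and deposited counts per target, without normalization. The deposited RPM values are the authors' scaling of these counts to the library total. Of 20812 targets, 10 spike-in targets held no count and were left out; columns of gene annotation were not used. Groups and controls were taken from the labels. The gene groups were chosen with earlier results of these data known, and so support no test of a group. Genes named outside them are the 15 highest and 15 lowest by ratio at 0.3 µM among called genes with the same sign at all 3 concentrations and at least 50 counts in 1 of the 4 libraries, other than the genes that describe the matched control and the step, which were chosen after their values were seen.

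Ratios are differences in log2(RPM + 1), which understate the change of genes with few reads. They have no replicate check, since each condition is 1 library. Slopes were tested on the counts with edgeR 4.0.16 in R 4.3.3 (TMM, filterByExpr, quasi-likelihood test), with the 9 exposure sets as a block and 1 slope for each of 10 chemicals. DESeq2 1.42.0, other scalings, filters, pseudocounts, control references and codings of concentration, and leaving out each of the 3 COL libraries and 4 DMSO controls, were tried as alternatives. The test was checked on simulated counts: of 200 changed genes it called 129 (82 of 100 at a slope of 0.7 and 47 of 100 at 0.4), and 5 unchanged ones. Values were computed with Python 3.11.15, pandas 2.3.3 and numpy 2.4.6. Reads carry no molecular identifiers, so count floors cover counting error only. Some genes of the groups are not reported here by name.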

Additional observations from a re-analysis of the deposited data

Results flagged for a closer look

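In 11 of 132 genes checked, 1 of the 4 DMSO controls stood apart from the other 3 by more than a gap that chance gives in about 1 in 20 groups, on the log2 scale. In 6 of them it was the matched control of COL, which enters every ratio above. It held 100.7 RPM of CPS1 against 47.4 to 50.5 RPM in the others, 35.1 RPM of FOSB against 4.29 to 5.22 RPM and 27.0 RPM of KLC1 against 23.4 to 24.0 RPM. It held 177.5 RPM of TNFRSF12A against 237.6 to 246.4 RPM, so the ratio of this rising gene is larger against it than against the others. CFTR (0.072 RPM) and STMN4 (0.072 RPM) had 1 count each in the matched control and none in the others, which is below the floor of 3 counts. In other sets, the control of ETP had 240.7 RPM of MDM2 against 390.3 to 430.5 RPM and 171.4 RPM of MYC against 135.0 to 140.4 RPM. The control of 2NF had 352.9 RPM of SULT2A1 against 219.7 to 227.8 RPM and 594.8 RPM of TUBA1C against 707.6 to 727.1 RPM, and that of CISP had 12.9 RPM of NR5A2 against 17.5 to 18.0 RPM.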

How the results depend on the processing

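Of the 1704 genes with a slope on COL concentration, the count was 2749 (1274 rising, 1475 falling) when the fit held only the 7 libraries of the exposure set (COL, AFB1 and their control), and 7 (5 rising, 2 falling) when COL was coded as treated or not. Leaving out 1 library at a time gave 231 to 1881 genes. The lowest count was without the 0.3 µM library, and without the matched control it was 834. DESeq2 called 1765. With library totals in place of TMM 886 genes rose and 835 fell, against 708 and 996, and the other scalings, filters and codings gave 1284 to 1713. The 3 COL libraries fitted with the 4 DMSO controls alone, without the block for exposure sets, gave 2317. With an RPM pseudocount of 0.1 the genes over 2-fold were 598, 985 and 1901 at the 3 concentrations, and against the mean of the other 3 DMSO controls they were 241 at 0.05 µM. Among the slopes the larger side turned with library totals, with COL coded as treated or not, and without the 0.3 µM library. Among genes over 2-fold it turned at 0.3 µM against the means of the DMSO controls. With a pseudocount of 0.1 it turned at 0.1 µM, with 462 higher and 523 lower. Against the mean of the other 3 DMSO controls the median at 0.3 µM went from 0.34 to −0.01 for the integrated stress group, from 0.18 to −0.07 for lysosome and autophagy and from 0.04 to −0.03 for housekeeping genes. With a pseudocount of 0.1 the urea cycle group had a lower median (−2.13) than the drug-metabolizing enzymes (−1.84). The log2 ratio at 0.3 µM of called genes of the groups kept its sign under the other pseudocount, scaling and control references. The cause of these changes was not tested. No paired analysis was possible because the labels give no replicate numbers shared between the groups and each condition is 1 library. Each concentration rests on 1 pooled library, and genes with few counts are limited by depth.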
